A study of Mus musculus with 24 samples.

Results

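The genes described here are 8 transcription factors of nerve regeneration in mouse sensory ganglia: Sox11, Smad1, Klf4, Klf6, Klf7, Klf9, Cebpb and Creb1. They were found by their symbols in the deposited table, which held 10 transcripts of them among 19571. All 10 passed the filter on low counts that left 18606 transcripts for testing. The samples were dorsal root ganglia, which hold the cell bodies of sensory neurons together with glia and lie next to the spinal cord, from wild-type C57/BL6 mice aged 12 weeks. All mice had a crush of the sciatic nerve, and 30 minutes later received either vehicle or 2 mg/kg camptothecin, an inhibitor of DNA topoisomerase I, into the peritoneum. Ganglia were taken at 18, 24 or 36 h after the crush. The vehicle groups held 3 libraries at each time, and the camptothecin groups held 3, 4 and 3 libraries at 18, 24 and 36 h. The labels name 24 samples, of which 5 were not analysed here. All groups carried the injury and no uninjured group was labelled, so no change from the resting ganglion was measured.

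An injured sensory neuron sends signals from the cut axon back to its nucleus, where sets of transcription factors switch on a growth programme. Sox11, an HMG-box factor of the SoxC family, and Smad1, which carries bone morphogenetic protein (BMP) signals to the nucleus, are known as factors of that programme in dorsal root ganglia. The Krüppel-like factors (Klf) bind GC-rich and CACCC-type DNA with 3 zinc fingers, and in rodent central neurons Klf6 and Klf7 favour axon growth whereas Klf4 and Klf9 hold it back. Cebpb is a leucine-zipper factor of injury and inflammation, and Creb1 passes cAMP and activity signals to its target genes.

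Library totals ranged from 3.62 to 15.04 M counts (M for mega). Vehicle libraries were the shallower ones at each time, with no overlap of totals between the arms. All 8 neuron markers looked for were in the table, with a summed level of 21594 to 34815 counts per M counts (CPM) per library. The summed level of 6 Schwann cell genes was 1203 to 2536 CPM and that of 5 satellite glia genes 941 to 1841 CPM. Of 7 macrophage genes, Aif1 was not found in the table and the other 6 summed to 15.7 to 47.6 CPM. In whole ganglia, fewer cells of a type and less RNA per cell cannot be told apart. The labels do not say that the libraries of a group came from separate mice, so a p-value here weighs a difference against a spread among samples that may be only technical.

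Each gene except Smad1 had 1 transcript in the table, which held 3 of the 5 annotated Smad1 transcripts. Positions are on GRCm38 in the GENCODE M21 annotation. Sox11 is a single-exon gene on the minus strand of chromosome 12, from 27334264 to 27342574. The main Smad1 transcript has 7 exons on the minus strand of chromosome 8, from 79338395 to 79399518. Klf6 has 4 exons on the plus strand of chromosome 13, from 5861482 to 5870394. Klf7 has 4 exons on the minus strand of chromosome 1, from 64029447 to 64121491, and Creb1 has 9 exons on the plus strand of the same chromosome, from 64532809 to 64601257. Klf4 has 5 exons on the minus strand of chromosome 4, from 55527143 to 55532466, and Klf9 has 2 exons on the plus strand of chromosome 19, from 23141226 to 23168134. Cebpb is a single-exon gene on the plus strand of chromosome 2, from 167688915 to 167690418.

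The promoters of Sox11, Smad1, Klf6 and Cebpb are shown because these 4 genes had vehicle libraries at 36 h that did not overlap those at 18 h, the first 3 higher and Cebpb lower. Each is 300 bases from RefSeq on GRCm38.p6, from 250 bases before the annotated start to 50 after it, read 5′ to 3′ on the gene's strand. Capitals mark the motifs searched on both strands, which were CACCC or its complement GGGTG for Klf factors, GGCGCC for the BMP response element and TGACGTCA for the CREB element.
Sox11, chr12:27342669-27342968, minus strand: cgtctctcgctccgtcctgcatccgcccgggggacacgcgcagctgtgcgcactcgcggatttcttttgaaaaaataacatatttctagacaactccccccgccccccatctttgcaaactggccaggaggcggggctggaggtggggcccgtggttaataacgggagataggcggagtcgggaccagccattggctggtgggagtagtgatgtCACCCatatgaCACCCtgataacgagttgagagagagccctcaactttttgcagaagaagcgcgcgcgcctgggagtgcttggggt
Smad1, chr8:79399379-79399678, minus strand: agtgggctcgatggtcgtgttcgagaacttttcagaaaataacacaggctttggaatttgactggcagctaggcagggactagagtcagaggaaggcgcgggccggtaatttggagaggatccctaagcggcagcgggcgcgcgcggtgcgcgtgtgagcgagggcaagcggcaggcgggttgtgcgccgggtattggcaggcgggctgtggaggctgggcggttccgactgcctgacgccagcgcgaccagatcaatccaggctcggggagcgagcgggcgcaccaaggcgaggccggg
Klf6, chr13:5861239-5861538, plus strand: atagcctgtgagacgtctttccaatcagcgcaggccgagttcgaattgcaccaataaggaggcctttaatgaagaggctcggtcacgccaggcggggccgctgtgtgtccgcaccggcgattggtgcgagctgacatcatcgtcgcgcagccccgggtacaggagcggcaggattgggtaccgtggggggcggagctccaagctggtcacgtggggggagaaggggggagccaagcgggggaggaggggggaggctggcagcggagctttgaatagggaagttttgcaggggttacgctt
Cebpb, chr2:167688665-167688964, plus strand: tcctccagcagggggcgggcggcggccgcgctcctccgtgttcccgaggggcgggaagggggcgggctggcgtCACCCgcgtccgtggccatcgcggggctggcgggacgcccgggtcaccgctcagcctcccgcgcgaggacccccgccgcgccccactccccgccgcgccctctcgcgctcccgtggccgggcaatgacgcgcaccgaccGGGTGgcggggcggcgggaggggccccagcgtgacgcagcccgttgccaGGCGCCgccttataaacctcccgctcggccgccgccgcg
Measured downstream from the RefSeq start, the start of the counted GENCODE transcript lay at 144 bases for Sox11 and 0 for Cebpb. It lay at -90 bases (upstream) for the main Smad1 transcript, -7 for Klf6 and -102 for Klf7. The windows of Smad1 and Klf7 therefore reach further into the counted transcript than the 50 bases named, and that of Sox11 ends before it. CACCC stood 2 times in the Sox11 promoter and 2 times in that of Cebpb, and not in those of Smad1 and Klf6. Among all 8 genes it was in the promoters of Sox11, Klf7, Klf9, Cebpb and Creb1, which is 5 of 8, against 57.5% of the 32851 promoters in the table. GGCGCC was in that of Cebpb only, 1 of 8, against 11.9% of all promoters. TGACGTCA was in 0 of 8, against 1.8% of all. A match describes the letters and not a site in use, and no match says only that these letters are not in this window.

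The Klf genes share the code of their zinc fingers, so reads from them could in principle be confused. The longest exact stretch that the coding sequences of Klf6 and Klf7 have in common is 26 bases, and it is shown here. Untranslated bases and inexact matches were not searched, so this stretch is not a bound on that confusion.
Klf6 coding bases 901 to 926 of 954 and Klf7 coding bases 850 to 875 of 903: gacaggtgtttctccaggtctgacca
The other pairs among Klf4, Klf6, Klf7 and Klf9 shared at most 15 bases, so no coding stretch of 27 bases or more is common to any pair. Of the exon bases of Cebpb, 908 lie within the span of Tmem189 on the opposite strand, introns of Tmem189 included. Of those of Klf7, 628 lie within the span of Gm13748 and 3465 within that of Gm26649, also on the opposite strand. Whether these bases are in exons of the opposite genes was not examined. Mean levels were 64.0 CPM for Tmem189 beside 3.20 for Cebpb, and 222 CPM for Gm13748 and 1039.5 CPM for Gm26649 beside 1916 for Klf7. Whether the counting used strand is not given in the sources used here. Where exons of both strands overlap, if they do, reads of these genes and of their opposite partners could not be told apart.

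Levels per transcript length placed Klf7 and Klf6 at the top. Klf7 had a median of 254 CPM per kb over the 19 libraries and ranged from 212 to 275. Klf6 followed with a median of 176 CPM per kb, ranging from 118 to 213, and it was below Klf7 in all 19 libraries. Smad1, by its main transcript, had a median of 66.9 CPM per kb and ranged from 38.3 to 77.3. Klf9 had a median of 38.4 CPM per kb, ranging from 25.5 to 63.7, and Smad1 was above it in 18 of 19 libraries. Sox11 had a median of 10.8 CPM per kb, ranging from 7.02 to 16.5, below Klf9 in all 19 libraries. Klf4 and Cebpb, with medians of 2.76 and 2.32 CPM per kb, were neighbours that did not separate, since Klf4 was above Cebpb in 14 of 19 libraries. The Creb1 transcript in the table was last with 0.213 CPM per kb. By CPM, Klf7 stood at the 99.8th percentile of the 18606 tested transcripts, Sox11 at the 89.5th and the Creb1 transcript at the 8.38th.

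**Figure D1:**
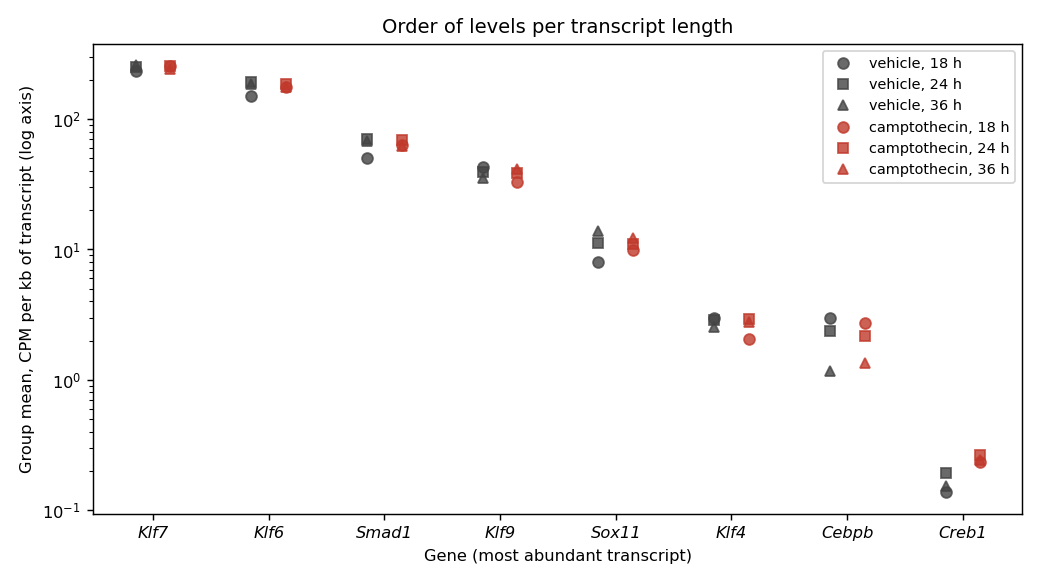
Group mean level of each gene's most abundant transcript in CPM per kb of transcript (log axis), with vehicle groups in grey on the left and camptothecin groups in red on the right of each gene, and a marker shape per time. The order runs from Klf7, with a median over libraries of 254 CPM per kb, to Creb1 with 0.213, and the groups of 1 gene lie close together beside the gaps between most neighbours.

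Between 18 and 36 h in vehicle ganglia Sox11 rose. In the main edgeR fit it was the only transcript of the 10 to pass the threshold in any of the 10 comparisons made. Its levels at 18 h were 67.4, 75.7 and 58.3 CPM in the vehicle libraries. At 24 h they were 96.2, 95.4 and 87.8 CPM, and at 36 h they were 110.8, 96.9 and 136.8 CPM. Every vehicle library at 24 h and at 36 h was above every one at 18 h, and the lowest library at 36 h was just above the highest at 24 h, a step that was not tested. The group means were 67.1 ± 8.68 CPM at 18 h, 93.2 ± 4.68 at 24 h and 114.8 ± 20.2 at 36 h (SD, n = 3 each). The log2 fold change of Sox11 from 18 to 36 h was 0.78 ± 0.14 (SE), a 1.72-fold rise, with a 95% interval of 0.49 to 1.07 and an adjusted p of 0.00359 in edgeR's quasi-likelihood test with Benjamini-Hochberg adjustment over all transcripts. In that comparison 1.44% of the tested transcripts passed in either direction and 1.01% were higher at 36 h. From 18 to 24 h the log2 fold change of Sox11 was 0.47 ± 0.14, with an adjusted p of 0.164 in the same edgeR test and of 0.0337 in DESeq2.

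The Sox11 call held in each of the 19 fits that left out 1 library, with a log2 fold change of 0.63 to 0.89 and an adjusted p of 0.00286 to 0.0426 in the same edgeR test. Without all 4 libraries numbered 4, which included 1 vehicle library at 18 h and 1 at 36 h, the log2 fold change was 0.55 with an adjusted p of 0.144. Beside this rise, the summed neuron markers were 31133 to 32943 CPM in vehicle libraries at 18 h and 25147 to 31129 CPM at 36 h. Of the 15 neuron marker transcripts tested 1 passed, higher at 36 h, and 0 were lower. The median log2 fold change of the 15 was 0.07, so the lower sum was not a fall of most of these markers. The summed satellite glia markers were 941 to 1230 CPM at 18 h and 1356 to 1841 CPM at 36 h. Of the 7 satellite glia transcripts tested 1 passed, higher at 36 h, against 1.01% of all transcripts. The median log2 fold change of the 7 was -0.0152, so the higher sum was not a rise of most of these markers. The part of these cell markers in the result was not tested. When library depth entered the fit as a covariate (log2 of the total), the Sox11 fold change was 0.71 on the log2 scale with an adjusted p of 0.00647 in edgeR's quasi-likelihood test.

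In camptothecin ganglia no member passed the threshold over time. Sox11 levels there were 76.4, 85.7 and 86.6 CPM at 18 h. At 24 h they were 89.8, 106.2, 85.4 and 82.4 CPM, and at 36 h they were 96.6, 113.0 and 93.7 CPM. The 36 h libraries were all above those at 18 h, and those at 24 h overlapped both. From 18 to 36 h the log2 fold change under camptothecin was 0.29 ± 0.14, with an adjusted p of 0.437 in edgeR's quasi-likelihood test. In this comparison 0.511% of all transcripts and 0 of the 10 members passed.

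The difference between the arms in that course was tested as the drug effect at 36 h minus that at 18 h. For Sox11 it was -0.49 ± 0.19 on the log2 scale, with an unadjusted p of 0.0190 and an adjusted p of 0.986 in edgeR's quasi-likelihood test. In that comparison 0.0107% of all transcripts and 0 of the 10 members passed. The rise of Sox11 in vehicle ganglia and the smaller value under camptothecin were therefore not shown to differ after adjustment.

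**Figure D2:**
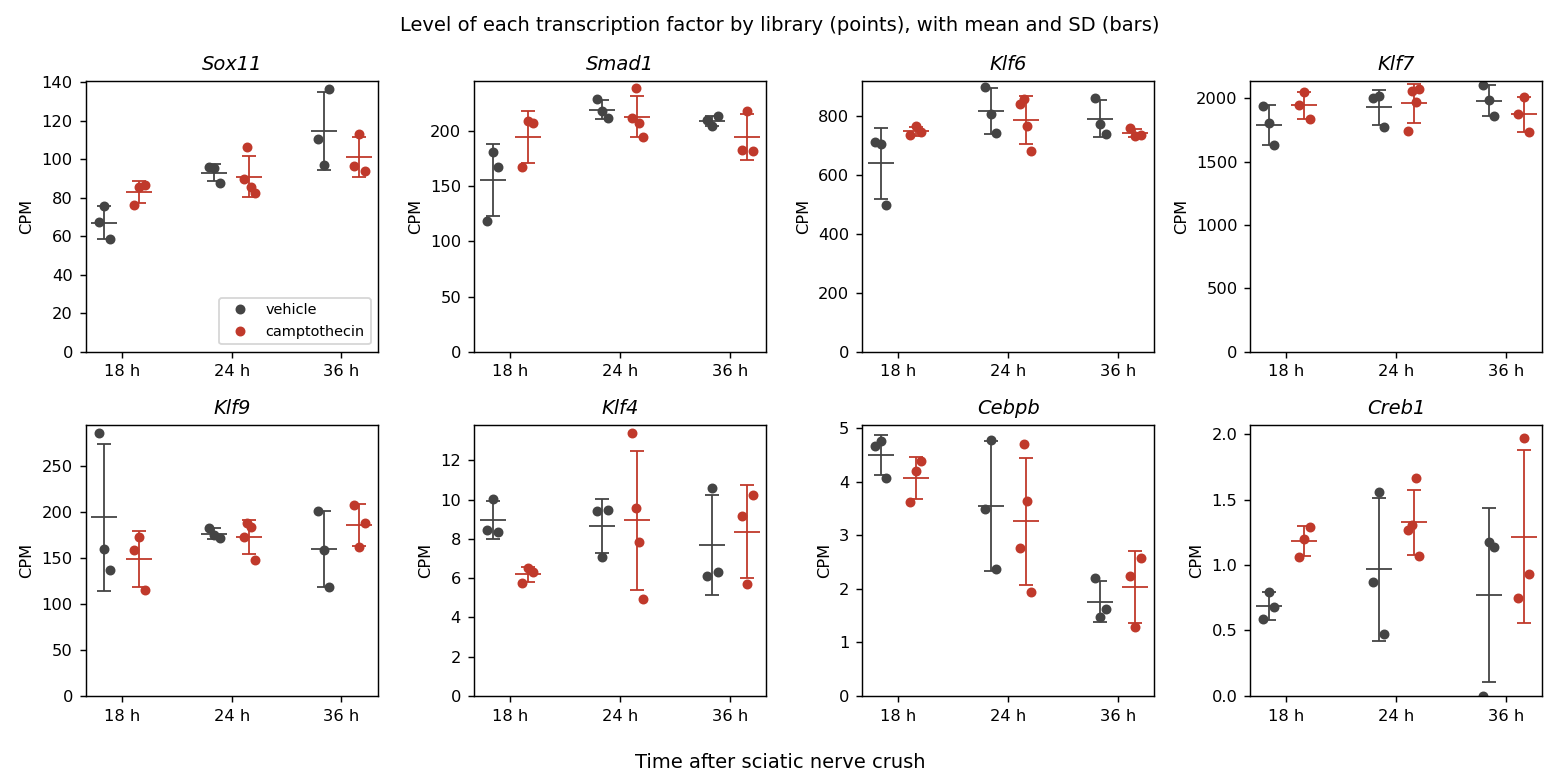
Level in CPM of the most abundant transcript of each of the 8 genes in every library (points), with the group mean and SD as bars, by time after crush and arm (vehicle grey, camptothecin red). The vehicle points of Sox11 at 18 h, 58.3 to 75.7 CPM, lie below all other Sox11 points, and the Cebpb points at 36 h lie below those at 18 h in both arms.

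Smad1, the carrier of BMP signals, was also lowest in vehicle ganglia at 18 h, but did not pass the threshold. The main Smad1 transcript had 118.8, 181.0 and 168.0 CPM in vehicle libraries at 18 h. It had 229.1, 218.0 and 211.9 CPM at 24 h and 209.8, 204.7 and 213.8 CPM at 36 h. Vehicle libraries at both later times were all above those at 18 h, and the later times overlapped each other. Against 18 h, Smad1 was at 0.49 ± 0.13 at 24 h with an adjusted p of 0.131, and 0.42 ± 0.14 at 36 h with an adjusted p of 0.145, on the log2 scale and both in edgeR's quasi-likelihood test. DESeq2 gave 0.51 at 24 h with an adjusted p of 0.0138 and 0.45 at 36 h with an adjusted p of 0.0359, so the call on Smad1 depended on the test.

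Under camptothecin Smad1 did not separate by time. Its values were 168.0, 209.5 and 207.3 CPM at 18 h, 212.0, 239.5, 207.3 and 194.6 CPM at 24 h, and 182.8, 218.5 and 181.8 CPM at 36 h. All 3 times overlapped. The 95% interval of the log2 fold change from 18 to 36 h was -0.28 to 0.27. Sox11 and Smad1 levels had a Pearson correlation of 0.67 over the 19 libraries and of 0.48 after the group means were taken out, where all points share the same libraries and scaling.

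Klf6 and Klf7 were high at all times. Klf6 had 712.0, 705.7 and 498.0 CPM in vehicle libraries at 18 h, with 1 library well below the others. It had 898.1, 804.8 and 743.3 CPM at 24 h and 861.8, 772.6 and 738.0 CPM at 36 h, all above the 18 h libraries. From 18 to 36 h the log2 fold change was 0.31 ± 0.12 and the adjusted p 0.291 in edgeR's quasi-likelihood test. Under camptothecin the Klf6 libraries lay between 681 and 857 CPM at all times, and the fold change from 18 to 36 h was -0.01 ± 0.12 on the log2 scale. Klf7, the most abundant of the 8 genes, ranged from 1628 to 2104 CPM over all 19 libraries. Its log2 fold change from 18 to 36 h in vehicle ganglia was 0.15 ± 0.10, with an adjusted p of 0.633 in edgeR's quasi-likelihood test.

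Klf9 and Klf4 showed no shift past the threshold. Klf9 had 285.8, 160.1 and 136.8 CPM in vehicle libraries at 18 h, so that 1 library stood far above the other 2. At 36 h it had 201.3, 158.5 and 118.6 CPM. Its log2 fold change was -0.28 ± 0.22, and 0.11 without the highest library. Klf4 lay between 4.94 and 13.4 CPM in all 19 libraries, and its log2 fold change from 18 to 36 h in vehicle ganglia was -0.24 ± 0.33.

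Cebpb was lower at 36 h than at 18 h in both arms, with no overlap of libraries, but did not pass the threshold in either. Its vehicle levels were 4.67, 4.76 and 4.07 CPM at 18 h, 3.49, 4.78 and 2.37 CPM at 24 h, and 2.20, 1.47 and 1.62 CPM at 36 h. Its camptothecin levels were 3.63, 4.21 and 4.38 CPM at 18 h, 2.77, 4.70, 3.65 and 1.94 CPM at 24 h, and 2.25, 1.28 and 2.58 CPM at 36 h. The 24 h libraries of both arms spanned most of the range between the other times. The log2 fold change from 18 to 36 h was -1.34 ± 0.42 with vehicle, with an adjusted p of 0.138, and -0.997 ± 0.373 with camptothecin, with an adjusted p of 0.293, in edgeR's quasi-likelihood test. These values rest on 5 to 72 counts per library. The arms share no library but were fitted together with 1 estimate of spread. Both values were negative, and their agreement was not tested.

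Without regard to the test, 3 of the 10 transcripts had all vehicle libraries at 36 h above those at 18 h (Sox11, Smad1 and Klf6) and 1 had all below (Cebpb), against 7.86% and 6.67% of all tested transcripts. At 24 h the counts were 3 above and 1 below, a minor Smad1 transcript, against 8.36% and 9.29%, and 0 of 10 passed the threshold against 0.231% of all. Under camptothecin 1 was above at 36 h (Sox11) and 1 below (Cebpb), against 9.62% and 8.75%. At 24 h under camptothecin 0 of 10 were apart, against 6.32% of all transcripts, and 0 of 10 passed, against 0% of all. In that last comparison edgeR had 940 transcripts and 0 members at an unadjusted p under 0.05, and DESeq2 called 1 transcript. The median log2 fold change of the 10 transcripts from 18 to 36 h with vehicle was 0.17, beside -0.00484 over all tested transcripts.

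**Figure D3:**
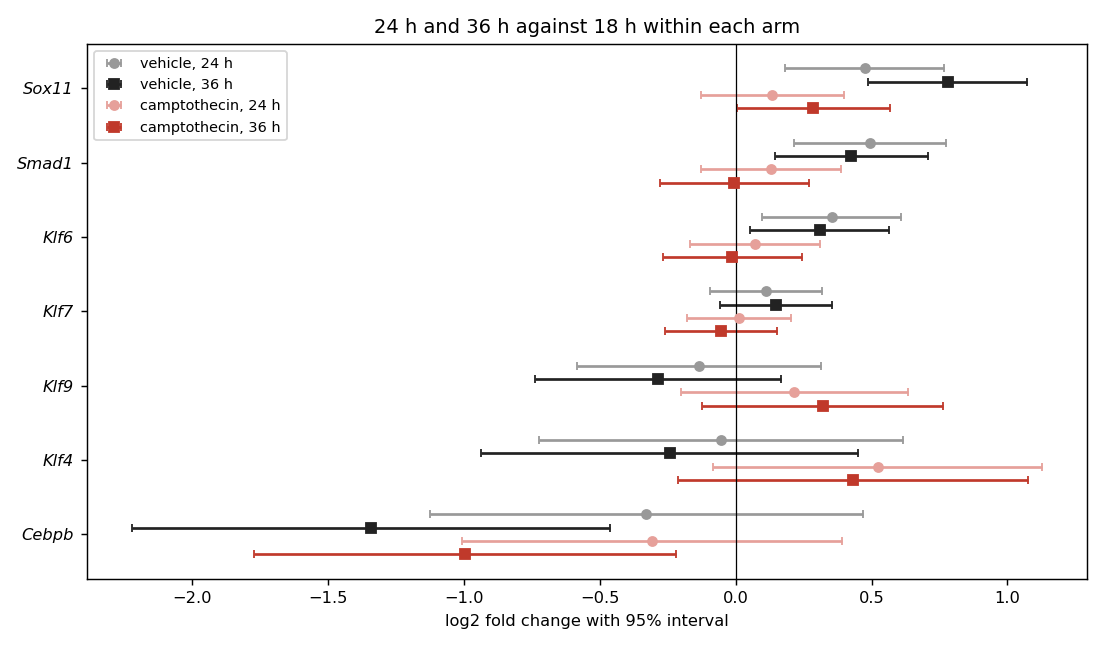
Log2 fold change of 7 genes at 24 h (circles) and 36 h (squares) against 18 h, in vehicle (grey and black) and camptothecin (pink and red) ganglia, with 95% intervals from the edgeR fit. The Sox11 interval at 36 h with vehicle runs from 0.49 to 1.07, and the Cebpb point at 36 h is below 0 in both arms.

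In the main edgeR fit camptothecin did not change any of the 10 transcripts past the threshold at any time. In 1 alternative fit, given in the closing section, Klf6 passed at 18 h and in the average. At 18 h 0 of 10 passed against 1.58% of all transcripts, at 24 h 0 of 10 against 0%, at 36 h 0 of 10 against 2.5%, and in the average over the 3 times 0 of 10 against 10.3%. At 24 h edgeR called 0 transcripts of any gene, with 1485 at an unadjusted p under 0.05, and DESeq2 called 121. At an unadjusted p under 0.05 there were 2 members at 18 h (Smad1 and Sox11) and 0 at 24 h, at 36 h and in the average, and DESeq2 called 0 members in each of these. The lowest adjusted p of a member in edgeR's quasi-likelihood test was 0.252 at 18 h, 0.871 at 24 h, 0.465 at 36 h and 0.367 in the average. In the authors' deposited table the lowest adjusted p of a member was 0.179, for Smad1 at 18 h.

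At 18 h Sox11, Smad1, Klf6 and Klf7 had positive log2 fold changes with camptothecin, and none passed the threshold in the main edgeR fit. Sox11 had a log2 fold change of 0.31 ± 0.14 with a 95% interval of 0.02 to 0.60 and an adjusted p of 0.301 in edgeR's quasi-likelihood test, and its libraries did not overlap between the arms. Smad1 had 0.32 ± 0.13 with an interval of 0.04 to 0.60 and an adjusted p of 0.252, and its libraries overlapped. Klf6 had 0.23 ± 0.12 without overlap and Klf7 had 0.12 ± 0.10 with overlap. Of the 10 transcripts 3 were above in all camptothecin libraries (Sox11, Klf6 and Creb1) and 1 was below in all (Klf4), against 8.07% and 11.0% of all transcripts.

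These 18 h values share their vehicle libraries with the comparisons over time given above, so they are not separate evidence. The vehicle libraries at 18 h held 3.62 to 4.38 M counts against 6.64 to 10.1 M counts with camptothecin. With depth as a covariate, the log2 fold change at 18 h was -0.00313 for Sox11 and 0.07 for Smad1. Depth and arm cannot be fully told apart here, as the 2 ranges do not overlap.

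Klf9 and Klf4 had negative log2 fold changes at 18 h with camptothecin, and neither passed the threshold. Klf9 had 159.1, 172.6 and 114.6 CPM with camptothecin at 18 h, and its log2 fold change of -0.38 ± 0.22 became 0.03 without the highest vehicle library. Klf4 had 8.47, 10.1 and 8.37 CPM with vehicle and 5.75, 6.51 and 6.32 CPM with camptothecin, which did not overlap. Its log2 fold change was -0.53 ± 0.33 with an adjusted p of 0.495 in edgeR's quasi-likelihood test. Cebpb differed by -0.14 ± 0.38 on the log2 scale.

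At 24 and 36 h the arms overlapped for all 10 transcripts. Of all transcripts, 9.03% had no overlap at 24 h, and at 36 h 9.6% were higher and 8.7% lower in all camptothecin libraries. For Sox11 the 95% interval of the log2 fold change was -0.30 to 0.23 at 24 h and -0.47 to 0.09 at 36 h. For Smad1 it was -0.30 to 0.22 at 24 h and -0.39 to 0.17 at 36 h. The Klf7 interval was the narrowest, -0.17 to 0.21 at 24 h and -0.29 to 0.12 at 36 h. The intervals of the scarce genes were wide, and that of Cebpb at 36 h ran from -0.66 to 1.08. Averaged over the 3 times, the log2 fold change was 0.03 ± 0.08 for Sox11, 0.06 ± 0.08 for Smad1, 0.03 ± 0.07 for Klf6 and 0.02 ± 0.06 for Klf7.

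The drug effect at 36 h minus that at 18 h was negative for Smad1 and Klf6 as well, at -0.43 ± 0.19 and -0.32 ± 0.17 on the log2 scale, and positive for Klf9 at 0.60 ± 0.31. All 3 had an adjusted p of 0.986 in edgeR's quasi-likelihood test. For the drug effect at 24 h minus that at 18 h, 0 of 10 members passed against 0% of all transcripts, with 785 transcripts and 0 members at an unadjusted p under 0.05 in edgeR and 5 transcripts called by DESeq2. At 36 h the summed neuron markers were 25147 to 31129 CPM with vehicle and 21594 to 24687 CPM with camptothecin, and the part of this in the values at 36 h was not tested.

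**Figure D4:**
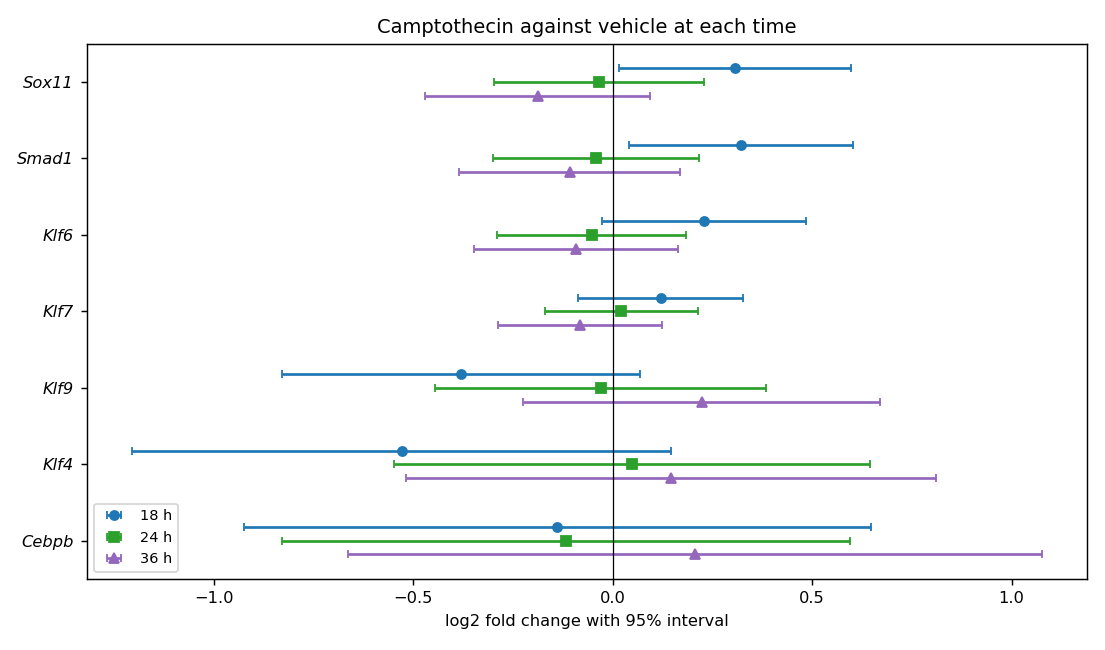
Log2 fold change of camptothecin against vehicle for 7 genes at 18 h (circles), 24 h (squares) and 36 h (triangles), with 95% intervals from the edgeR fit. Sox11 and Smad1 are above 0 at 18 h, at 0.31 and 0.32, and the intervals of all 7 genes include 0 at 24 and 36 h.

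The Creb1 transcript in the table had few counts in every library. This transcript, with 9 exons, was 1 of 11 annotated, and the other 10 were not analysed here. Vehicle libraries held 2, 3 and 3 counts of it at 18 h, 5, 13 and 3 at 24 h, and 0, 4 and 7 at 36 h. Camptothecin libraries held 7, 12 and 10 counts at 18 h, 11, 20, 21 and 11 at 24 h, and 8, 20 and 9 at 36 h. The deeper camptothecin libraries held more counts, and in CPM the arms did not overlap at 18 h. The log2 fold change at 18 h was 0.77 ± 0.73 with an adjusted p of 0.711 in edgeR's quasi-likelihood test. No difference was detected at these counts. How reads shared with the other transcripts were counted is not given, so the counts need not be those of the whole gene.

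Smad1 RNA was counted almost wholly on its main transcript. ENSMUST00000066091 took 95.4% to 99.4% of the Smad1 counts of a library, with a median of 98.6%. ENSMUST00000066081, a processed transcript of 4 exons that codes for no annotated protein, took 0.244% to 3.14%. ENSMUST00000109885, a transcript of 6 exons, took 0.216% to 1.81%. Of the 25-base words of these minor transcripts, 37.0% and 55.3% are absent from the main one, so most or much of their sequence cannot by itself place a read on 1 transcript.

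The shares of both minor transcripts were highest in the library numbered 4 in each of the 4 groups that hold one. That of ENSMUST00000066081 was 1.94% in vehicle at 18 h, 2.33% in vehicle at 36 h, 3.14% in camptothecin at 18 h and 1.59% in camptothecin at 24 h. The exact Clopper-Pearson 95% interval was 2.36% to 4.09% for the third of these and 1.10% to 2.23% for the last. In both vehicle groups the interval of 1 other library overlapped that of the library numbered 4, and in both camptothecin groups none did. That of ENSMUST00000109885 was 1.81% and 1.60% in vehicle at 18 and 36 h and 1.48% and 1.30% in camptothecin at 18 and 24 h, and in all 4 groups the interval of at least 1 other library overlapped it. The intervals cover counting error only. What the number 4 stands for is not given in the labels, and its part in the shares was not tested.

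**Figure D5:**
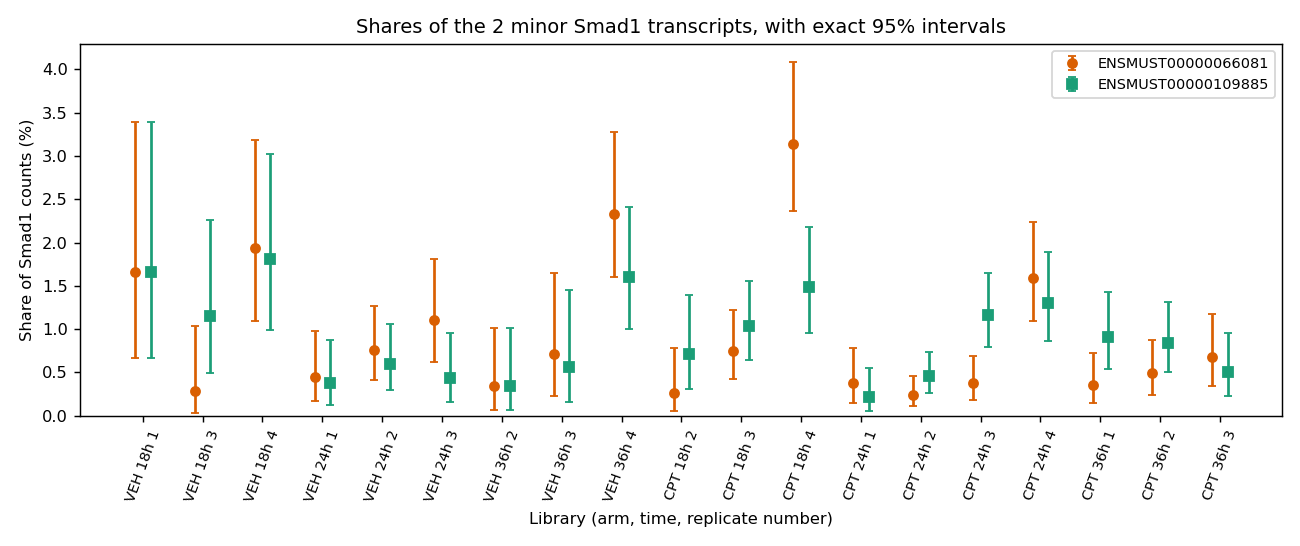
Share of all Smad1 counts taken by each of the 2 minor transcripts in every library (VEH vehicle, CPT camptothecin, with time and replicate number), with exact 95% binomial intervals. The shares of both transcripts are highest in the library numbered 4 of each group that has one, at 1.59% to 3.14% for ENSMUST00000066081 and 1.30% to 1.81% for ENSMUST00000109885.

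Genes whose pattern over the 19 libraries was most like that of Sox11 were Mettl7a3, Pigf and Gpr151, with Pearson correlations of log2 CPM of 0.94, 0.91 and 0.91. For Smad1 they were Dpysl3, Reep4 and Gm7327, at 0.86, 0.86 and 0.85. For Klf7 they were P2rx3, Tubb4a and Gm13748, at 0.81, 0.81 and 0.75. Gm13748 is the gene that overlaps Klf7 on the opposite strand, and its mean level was 222 CPM. These values describe the libraries, which share depth and scaling within each point.

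Around Smad1, the BMP pathway was represented by 24 transcripts of 22 genes, of which 21 were tested. At each of the 3 times taken alone 0 of 21 passed between the arms in edgeR's quasi-likelihood test. At an unadjusted p under 0.05 there were 4, 4 and 5 of them at 18, 24 and 36 h, DESeq2 called 1, 0 and 2, and limma called 0 at each. In the average over the times 1 was higher and 5 were lower with camptothecin, against 2.59% and 7.69% of all transcripts. The median log2 fold change of the 21 was -0.20, beside 0.01 over all tested transcripts. Among ligands, Bmp6 was higher at 0.74 ± 0.19. Among receptors, Acvr2a and Bmpr1a were lower at -0.58 ± 0.11 and -0.34 ± 0.10. Smad4, the shared partner that Smad1 binds to enter the nucleus in a complex, was lower at -0.22 ± 0.07. The BMP antagonist noggin (Nog), at 0.65 to 2.24 CPM by group mean, was lower at -1.20 ± 0.34, and the target gene Id4 was lower at -0.83 ± 0.15.

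The call on Smad4 was kept in 1 of 19 fits that left out a library, those on Bmpr1a and Nog in 15 and 16, and those on Bmp6, Acvr2a and Id4 in all 19. With the GC correction, which removes each library's trend with transcript GC content, Bmp6 (0.58), Acvr2a (-0.25), Bmpr1a (-0.0846) and Smad4 (-0.26) no longer passed. Without the libraries numbered 4, Nog and Smad4 did not pass. With depth as a covariate none of the 6 passed, and no transcript of any gene passed in that setting. Over time, follistatin (Fst), an antagonist of activins and some BMPs, was the BMP pathway gene that passed. Its group mean went from 36.0 CPM at 18 h to 86.1 CPM at 36 h with vehicle, a log2 fold change of 1.26 ± 0.16 with an adjusted p of 9.63e-05 in edgeR's quasi-likelihood test. With camptothecin it went from 44.0 to 73.1 CPM, at 0.73 ± 0.15 with an adjusted p of 0.0270. In each arm Fst was 1 of 21 to pass from 18 to 36 h, against 1.44% of all transcripts with vehicle and 0.511% with camptothecin. This gene was named after its values were seen. The vehicle value was kept in all 19 fits that left out a library and the camptothecin value in 15 of 19. With depth as a covariate the vehicle value passed and the camptothecin value did not.

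Other Klf genes were present as 11 transcripts of 9 genes, all tested. Klf5 was higher with camptothecin at 36 h, at 0.64 ± 0.14 on the log2 scale with an adjusted p of 0.0175 in edgeR's quasi-likelihood test. It was the 1 of 11 to pass there, against 2.5% of all transcripts. In the average over the times Klf5 and Klf13 were higher at 0.38 ± 0.08 and 0.24 ± 0.07, and Klf11 was lower at -0.41 ± 0.12. That made 2 of 11 higher and 1 of 11 lower, against 2.59% and 7.69% of all transcripts. The Klf5 call at 36 h was lost without vehicle library 2 or 3 or camptothecin library 1 at that time. The Klf13 and Klf11 calls were kept in 8 and 12 of 19 fits that left out a library. With the GC correction Klf5 at 36 h (0.64, adjusted p 0.0626 in edgeR) and Klf13 (0.10) did not pass, and Klf13 did not pass without the libraries numbered 4. Sox4, the SoxC relative of Sox11, had a lower average with camptothecin at -0.49 ± 0.12, with an adjusted p of 0.0109 in edgeR's quasi-likelihood test. The Sox4 call was kept in all 19 fits that left out a library. With depth as a covariate the calls on Sox4, Klf5, Klf11 and Klf13 were all lost. From 18 to 36 h with vehicle, Sox4 had a log2 fold change of -0.21 ± 0.22 and an adjusted p of 0.807, while its relative Sox11 rose.

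Among 5 transcripts of the Cebpb relatives, Cebpd had a higher average with camptothecin at 0.60 ± 0.19 and 4 did not pass. That was 1 of 5 higher, against 2.59% of all transcripts. The Cebpd call was kept in 4 of 19 fits that left out a library and was lost with the GC correction (0.53) and with depth as a covariate. Ddit3, the stress-induced C/EBP relative also called CHOP, fell by 0.87 on the log2 scale from 18 to 36 h with camptothecin (SE 0.19). Its adjusted p was 0.0318 in edgeR's quasi-likelihood test, and it was the 1 of 5 to pass there, against 0.511% of all transcripts. The Ddit3 call was kept in 14 of 19 such fits and lost with depth as a covariate, and the gene was named after its values were seen.

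Atf1, the CREB relative that pairs with Creb1, was lower with camptothecin. Group means of Atf1 were 155.2, 95.8 and 154.7 CPM with vehicle at 18, 24 and 36 h and 79.6, 67.8 and 78.9 CPM with camptothecin. Atf1 had a log2 fold change of -0.96 ± 0.24 at 18 h with an adjusted p of 0.0434, -0.50 ± 0.22 at 24 h with 0.558 and -0.96 ± 0.24 at 36 h with 0.0299, in edgeR's quasi-likelihood test. The average was -0.81 ± 0.13 and was kept in all 19 fits that left out a library, whereas the calls at 18 and 36 h were kept in 9 and 14 and were both lost with the GC correction (-0.85 at each time). With depth as a covariate the Atf1 average was -0.04, and neither it nor the values at 18 and 36 h passed. Of 12 transcripts of CREB coactivators and kinases, Crebbp alone had a changed average, higher at 0.24 ± 0.07. That was 1 of 12, against 10.3% of all transcripts in either direction and 2.59% higher. The Crebbp call was kept in 15 of 19 fits that left out a library. It was lost with the GC correction (0.16) and with depth as a covariate. Of 9 transcripts of 7 CREB target genes, Fos and Bdnf among them, 0 passed in any of the 10 comparisons in edgeR, DESeq2 or limma, and at an unadjusted p under 0.05 in edgeR there were 0 to 2 of them per comparison.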

How the data were processed

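Whole-ganglion total RNA was amplified to cDNA (Nugen Ovation V2), sheared and sequenced as paired ends, per the labels' protocols, which also mention IP or FT RNA. The submitters' processing notes name mm10, limma and CASAVA 1.8.2. Neither the aligner nor the counter is named in the sources used here. The authors deposited a whole-number count per transcript and library, a log2-scale value per library, and log2 fold changes with p-values for camptothecin against vehicle. Transcripts with fewer than 75 counts over the 19 libraries were absent from the deposited table. Columns carry a letter, A or B, with no legend; the letters were assigned to the arms because the deposited contrasts, whose headers name camptothecin and vehicle, equalled B minus A.

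The counts were fitted in R 4.3.3 with edgeR 4.0.16 (filterByExpr with a minimum count of 10, TMM, quasi-likelihood F test, 6 group means, 13 residual degrees of freedom). P-values were two-sided and adjusted by Benjamini-Hochberg over 18606 transcripts, with a threshold of 0.05. Of the deposited transcripts, 291 had no gene name. The fit was tested on simulated data. The members and lists were chosen with earlier results of these data known. Named genes were all transcripts of the 8 genes, up to 3 called genes of each related list per drug comparison, and the 3 genes of most like pattern. Alternatives were RLE scaling, no filter, gene sums, limma 3.58.1 on the deposited log2 values, a replicate block, a GC correction, both together, library total as a covariate, no libraries numbered 4, DESeq2 1.42.0 and leaving out each library. Promoters came from RefSeq, and transcript structures from GENCODE M21.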

Additional observations from a re-analysis of the deposited data

Results flagged for a closer look

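Of 10 tests for a library standing apart in the group of 4 (camptothecin at 24 h), 1 was positive, and chance gives about 1 in 20. The minor Smad1 transcript ENSMUST00000066081 was at 3.20 CPM, or 33 counts, in the library numbered 4, against 0.588 to 0.807 CPM in the other 3. The gap to the nearest library was 0.916 of the whole range, above Dixon's 95% critical value for 4 samples. The same library was highest in the share of this transcript among Smad1 counts, at 1.59%, but that share rests on the same 33 counts and is not a separate observation.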

How the results depend on the processing

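Of 1125 alternative values of the 40 member fold changes given, 1088 kept their direction and their side of the threshold, and of 290 counts of members called, 284 stayed the same. Sox11 in 1 comparison was the only call of the main edgeR fit, so nearly all values began on the side that did not pass. The size of a value was not weighed, so these counts do not measure how stable the sizes were. With the replicate block and GC correction together, 1 member passed at 18 h (Klf6 0.51, adjusted p 0.0336 in edgeR) and 1 in the average (Klf6 0.23), and 2 passed from 18 to 36 h with vehicle, where Klf6 was added at 0.43. Of all 18606 transcripts that setting called 134, 1395 and 386 in these comparisons, in this order. DESeq2 called 2 members from 18 to 24 h with vehicle (Smad1 and Sox11 at 0.50) and 2 from 18 to 36 h (Sox11 and Smad1). Of all transcripts given an adjusted p, DESeq2 called 347 of 9587 and 567 of 11390 there, where edgeR called 43 and 268 of 18606. Without all libraries numbered 4, 0 members passed from 18 to 36 h with vehicle. The cause was not tested.

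Deviations of same-numbered vehicle and camptothecin libraries had correlations of -0.21 to 0.23 over 7 pairs, not over 0.1 in every pair, so the numbers were not taken to pair the samples. The 1 pair numbered 4 had the highest, and whether that number marks a batch was not tested. The replicate block alone gave 0 called members in the drug comparisons and 1 from 18 to 36 h with vehicle, with Sox11 at 0.75.

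Sox11 with camptothecin against vehicle at 18 h had a main value of 0.31 ± 0.14, with an interval of 0.02 to 0.60 that excluded 0. Except for that value, reversals were at values near 0 or with wide errors. With the library total as a covariate they were Sox11 at 18 h (-0.00313), Klf7 at 24 h (-0.0433), Cebpb at 36 h (-0.63) and Sox11 from 18 to 24 h with camptothecin (-0.0275). With the GC correction they were, at 36 h, Klf6 (0.15), Klf7 (0.0278), Cebpb (-0.0586) and Klf4 (-0.0106), and Klf6 from 18 to 36 h with camptothecin (0.0705). With the block they were Klf4 at 36 h (-0.0728) and Smad1 from 18 to 36 h with camptothecin (0.0397). With block and GC correction they were Sox11 at 24 h (0.0110), at 36 h Klf6 (0.0102), Cebpb (-0.11) and Klf4 (-0.22), and Smad1 from 18 to 36 h with camptothecin (0.00830). Without the libraries numbered 4 they were Smad1 (0.00711) and Sox11 (0.0185) at 24 h and Smad1 from 18 to 36 h with camptothecin (0.0294). Leaving out 1 library at a time gave ranges that crossed 0 for Klf9 at 18 h (-0.58 to 0.0294), Smad1 (-0.0805 to 0.0262), Sox11 (-0.10 to 0.0372) and Klf7 (-0.0371 to 0.0866) at 24 h, Klf4 at 36 h (-0.0215 to 0.43), Klf9 from 18 to 36 h with vehicle (-0.49 to 0.11), and Smad1 (-0.10 to 0.0493) and Klf6 (-0.0295 to 0.00213) from 18 to 36 h with camptothecin.

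The same alternatives were run for the 19 calls on related genes, a step chosen after seeing the data. In 7 of the 19 the call was kept in every fit that left out a library. Of the 19, 18 were lost with the library total as a covariate, where Bmpr1a reversed to 0.0812, 10 with the GC correction, 7 with block and GC correction, and 3 without the libraries numbered 4. Over all transcripts, counts of calls moved widely. At 18 h the 294 became 1 to 723 when 1 library was left out and 0 to 961 otherwise. At 36 h the 466 became 1 to 1015 and 0 to 1080. The average of 1913 became 1427 to 2503 and 0 to 2561. From 18 to 36 h with vehicle the 268 became 151 to 294 and 99 to 567, and from 18 to 24 h the 43 became 5 to 122 and 0 to 347. From 18 to 36 h with camptothecin the 95 became 36 to 160 and 64 to 388. Few counts limit the Creb1, Cebpb and minor Smad1 transcripts, at 169 to 475 counts each over all libraries.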
